A study of Danio rerio with 10 samples.

Results

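The genes described here are the lysosomal hydrolases, the lysosomal membrane proteins and the proton pump of the lysosome, as measured in microglia and in other brain cells of 3-month-old zebrafish. The members were found by name: 32 listed names, together with every row whose name begins with atp6v0, atp6v1 or atp6ap. Of the 32 names, 25 had a row, and 7 (scarb2a, scarb2b, lipa, gns, laptm5, lamp1a and lamp1b) had none under that exact spelling. A further 25 rows carried a pump name, 9 for the V0 part, 13 for the V1 part and 3 for accessory subunits, which made 50 of the 21756 genes in the table. All 50 passed the filter on low values described with the processing. A pair of pump rows share the name atp6v1e1a and are told apart here by their identifiers, ENSDARG00000014085 and ENSDARG00000003635. The reference gene table names the second of them mogat3b, so its place among the pump subunits is uncertain. That table names the lamp1 row (ENSDARG00000092610) lamp1b.

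Lysosomes are acidic compartments in which hydrolases break down proteins, lipids and sugars taken up from outside the cell or delivered from within it. Their acidity comes from the V-ATPase, a rotary pump whose V1 part binds and splits ATP in the cytosol and drives the V0 part in the membrane, through which protons pass. Membrane proteins protect the boundary and carry breakdown products out, and transcription factors of the TFEB family are known in mammals to raise many of these genes together. Microglia, the resident macrophages of the brain, are known for clearing dying neurons and debris through this compartment, and inherited defects of several of these enzymes cause storage diseases with loss of neurons.

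All fish carried Neuro:NTR-mCherry and mpeg1:GFP, and were 3 months old. NTR, a nitroreductase, turns metronidazole (MTZ) into a toxic product inside the cells that make it, here the neurons, while mpeg1:GFP marks macrophages and microglia by the mpeg1 promoter. Activated microglia came from fish kept in MTZ for 24 h (samples 3 and 7) or 48 h (samples 4 and 8), and control microglia from fish given the solvent DMSO (samples 1 and 5). Other brain cells were the GFP-negative cells (samples 2, 6 and 10), from fish whose treatment is not in the labels. Cells were freed by trypsin in the cold, enriched on Percoll and sorted for GFP, so macrophages other than microglia that use mpeg1 would also be in the gate. The labels do not say that samples came from separate fish, so each p-value measures the spread between samples alone, which may be technical.

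In the deposited table control microglia sample 9 and 24 h sample 3 hold the same value in all 21756 genes. The column was used as 24 h sample 3 and not as a control, which leaves 9 of the 10 libraries and 2 controls. Libraries held between 6185540 and 12815571 reads. Of the 16 microglia and macrophage markers, 16 were called higher in activated and 16 in control microglia than in other brain cells, whose libraries carried the markers of neurons and glia. The summed signal of 15 neuron markers was 80.2 to 133 in activated microglia, 179.3 to 193 in control microglia and 2251 to 4022 in other brain cells. That of 11 oligodendrocyte markers was 323 to 690 in activated microglia, 1093 to 2128 in control microglia and 24180 to 45460 in other brain cells. Not every list had a lower sum in microglia. For 9 endothelial and mural markers the sum was 358 to 497, 251 to 316 and 23.0 to 28.8 in the same order. For 8 neutrophil markers it was 238 to 638, 639 to 641 and 116 to 212.5. Single markers of these 2 lists went both ways. Against other brain cells, activated microglia had 4 endothelial and mural markers called higher and 4 lower. Of the neutrophil markers 2 were called higher and 3 lower, beside 22.9% and 27.6% of all genes. For control microglia these were 2 and 1, and 3 and 1, beside 15.1% and 20.2%. Of 11 radial glia and astrocyte markers, 10 were called lower in activated microglia than in other brain cells. The remaining marker, glula, was not called, and had 26930 in 48 h sample 8, against 3955 to 6983 in other brain cells. In the microglia libraries, slc17a7a, olig1, erbb3b and slc4a1a were the neuron, oligodendrocyte and erythrocyte markers without a read in at least 1 library, and the others had reads in every one. The part of such RNA in the differences described below was not tested. These are bulk samples, in which fewer cells of a type and less RNA per cell cannot be told apart.

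Values below are the authors' normalized signal per gene, in the order of the sample numbers given above, with SD as the error of a mean. A value of 0.223 stands for 0 reads, and 3 reads were worth between 0.216 and 0.464 units above it. Fold changes are differences on the log2(signal + 1) scale with their standard error (SE), the first named group minus the second. They come from limma fitted across 21714 genes, with Benjamini-Hochberg adjustment over all of them and calls at an adjusted p under 0.05. The signal is not divided by transcript length, so levels are compared between libraries and not between genes.

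The comparison with other brain cells asked which of these genes were higher or lower in microglia. In activated microglia (n = 4), most hydrolases, the V1 subunits and several membrane proteins stood above other brain cells (n = 3), while 1 copy of several duplicated pump subunits stood far below. Of the 50 genes, 36 were called higher and 7 lower, beside 22.9% and 27.6% of all genes tested. The 36 comprised 18 of the 25 pump rows and 18 of the 25 others, and the 7 comprised 5 pump rows and 2 others. The median difference was 1.66 over the 50 genes, 1.52 over the pump rows and 2.18 over the others, against -0.05 over all genes. In control microglia (n = 2), 22 were called higher and 7 lower than in other brain cells, beside 15.1% and 20.2% of all genes. These were 7 pump rows higher and 5 lower, and 15 others higher and 2 lower. Medians in that comparison were 1.06 over the 50 genes, 0.58 over the pump rows and 1.49 over the others, against -0.14 over all genes. Without control sample 1 the number called higher was 13, beside 1992 of 21589 genes, and without control sample 5 it was 11, beside 2026 of 21613. In either case 7 were called lower. Both comparisons use the same 3 libraries of other brain cells and are not independent of each other. The authors' deposited comparison of microglia with brain, at an FDR under 0.05, had 27 members higher and 7 lower. These stand beside 17.9% and 24.9% of its genes. Its label does not say whether those microglia were controls alone or included activated libraries.

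Among the enzymes that cut sugar chains from lipids and proteins, hexb, the beta subunit of beta-hexosaminidase, had 361 and 402 at 24 h, 489 and 891 at 48 h, against 147 and 198 in control microglia and 39.1, 31.1 and 39.2 in other brain cells. Every microglia library was above every other brain cell library, and every activated library above both controls. hexb averaged 535.7 ± 243 in activated microglia (SD, n = 4), 172 ± 36.0 in control microglia (SD, n = 2) and 36.5 ± 4.67 in other brain cells (SD, n = 3). Its difference from other brain cells was 3.75 ± 0.34 in activated microglia (limma, adjusted p = 1.83e-05) and 2.20 ± 0.31 in control microglia (adjusted p = 0.000936). hexa, which encodes the alpha subunit of the same enzyme, had 45.2 and 56.8 at 24 h, 78 and 102 at 48 h, against 38.7 and 40.1 in control microglia and 16.4, 14.2 and 12.9 in other brain cells. It followed the same order of groups at smaller differences, 2.14 ± 0.32 for activated and 1.39 ± 0.33 for control microglia (limma, adjusted p = 0.000336 and 0.0111). The control call of hexa was lost without control sample 1 or 5 (adjusted p up to 0.0853).

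gba encodes glucocerebrosidase, which releases glucose from glucosylceramide. Its values were 32.7 and 38.7 at 24 h, 34.8 and 19.5 at 48 h, 10.1 and 13.6 in control microglia and 4.31, 3.9 and 6.92 in other brain cells. Control microglia were above other brain cells without a call (1.11 ± 0.44, limma, adjusted p = 0.0816), while activated microglia differed by 2.41 ± 0.34 (adjusted p = 0.000223). The alpha-mannosidase gene man2b1 had 63.8 and 104 at 24 h, 104 and 80.8 at 48 h, against 27 and 40.1 in control microglia and 9.29, 5.42 and 10.1 in other brain cells, and the 3 groups of libraries did not overlap. Its difference from other brain cells was 3.28 ± 0.31 in activated and 1.91 ± 0.41 in control microglia (limma, adjusted p = 2.19e-05 and 0.00721), the control call being lost without either control library (adjusted p up to 0.104). gla, the alpha-galactosidase A gene, had 5.42 and 16 in the 24 h libraries, 21.8 and 22.5 in the 48 h libraries, 12.9 and 17.7 in the controls and 1.37, 1.41 and 3.75 in other brain cells. The 24 h sample 3 was the lowest microglia library, though still above all of the other brain cells. It was higher by 2.37 ± 0.51 in activated and 2.42 ± 0.49 in control microglia (limma, adjusted p = 0.00307 and 0.00508), the control call being lost without control sample 5 (adjusted p = 0.0683). The beta-galactosidase gene glb1 and the sialidase gene neu1 were higher in activated microglia by 1.56 ± 0.27 and 2.28 ± 0.27 (limma, adjusted p = 0.000947 and 8.02e-05). In control microglia they were higher by 1.23 ± 0.32 and 1.94 ± 0.36 (limma, adjusted p = 0.018 and 0.00316), and the glb1 call was lost without either control library or other brain cell sample 2 (adjusted p up to 0.146).

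psap encodes prosaposin, the precursor of the saposins that present sphingolipids to these enzymes. It had 3551 and 4076 at 24 h, 5560 and 8173 at 48 h, against 1844 and 1383 in control microglia and 213, 73.2 and 229.9 in other brain cells. The lowest microglia library was above the highest of the other brain cells by a wide margin, and the difference was 5.04 ± 0.49 for activated and 3.37 ± 0.52 for control microglia (limma, adjusted p = 2.56e-05 and 0.00138). Acid ceramidase, which splits ceramide, has a pair of genes in the table. asah1b had 444 and 527 in the 24 h libraries, 717 and 1675 in the 48 h libraries, 762 and 667 in the controls and 54.5, 43.4 and 24.1 in other brain cells. asah1a had 58.3 and 61.2 in the 24 h libraries, 55.6 and 129.7 in the 48 h libraries, 87.1 and 77.4 in the controls and 17.6, 19.2 and 7.78 in other brain cells. Both copies were higher in microglia of either kind than in other brain cells, asah1b by 4.21 ± 0.47 and asah1a by 2.28 ± 0.40 in activated microglia (limma, adjusted p = 6.21e-05 and 0.00101). In control microglia the differences were 4.18 ± 0.39 and 2.48 ± 0.43 (limma, adjusted p = 0.000165 and 0.00232), and leaving out control sample 1 ended the asah1a call (adjusted p = 0.0549).

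In activated microglia the peptidase genes lgmn and tpp1 had the largest positive differences of the 50 genes from other brain cells. lgmn, which encodes legumain, a protease that cuts after asparagine, had 2539 and 4210 at 24 h, 2116 and 5998 at 48 h, against 550.5 and 1475 in control microglia and 80.4, 116 and 57.3 in other brain cells. Every activated library was above both controls, and both controls were above every library of other brain cells. Its difference was 5.38 ± 0.43 for activated and 3.46 ± 0.49 for control microglia (limma, adjusted p = 9.67e-06 and 0.000882). tpp1, tripeptidyl peptidase 1, removes tripeptides from protein ends. It had 319 and 436 at 24 h, 411 and 649 at 48 h, against 154 and 230.1 in control microglia and 12.3, 13.1 and 11.5 in other brain cells, so the groups did not overlap and other brain cells lay within a narrow range. Activated microglia were higher by 5.05 ± 0.29 and control microglia by 3.83 ± 0.33 (limma, adjusted p = 2.4e-06 and 0.000115). ppt1, a thioesterase that removes fatty acids from proteins, had 158 and 149.8 in the 24 h libraries, 183 and 528 in the 48 h libraries, 220.4 and 226 in the controls and 94.3, 113 and 46.1 in other brain cells. It was called higher in activated microglia (1.46 ± 0.49, limma, adjusted p = 0.0296) and in control microglia (1.49 ± 0.41, adjusted p = 0.0228). The activated call was lost without other brain cell sample 2 or 10 (adjusted p up to 0.12), and the control call without either control library or without other brain cell sample 2 (adjusted p up to 0.16).

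npc2 and npc1 hand cholesterol from the lysosomal lumen to the membrane, npc2 as the soluble carrier and npc1 as the membrane protein. npc2 had 567 and 868 at 24 h, 796 and 4405 at 48 h, 733 and 896 in control microglia and 159, 225 and 60.8 in other brain cells. The 48 h sample 8 stood far above the other microglia libraries, which overlapped between groups. npc2 was higher than in other brain cells by 3.13 ± 0.70 in activated and 2.63 ± 0.53 in control microglia (limma, adjusted p = 0.00395 and 0.00498), the control call being lost without either control library (adjusted p up to 0.0927). npc1 had 182 and 259 at 24 h, 278 and 125 at 48 h, against 102 and 115 in control microglia and 61.9, 56.6 and 71.2 in other brain cells. It was called in activated microglia (1.66 ± 0.32, limma, adjusted p = 0.00177) and not in control microglia (0.77 ± 0.30, adjusted p = 0.0751).

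**Figure D1:**
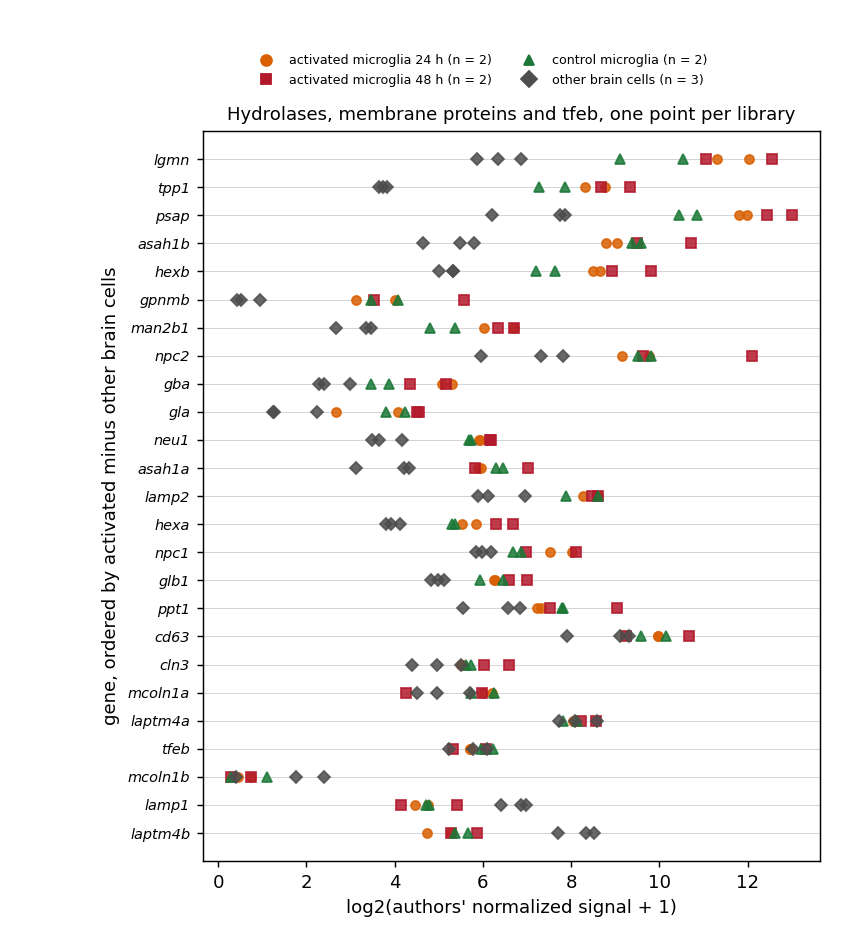
Each row is a hydrolase, membrane protein or tfeb, each point 1 library, and the x axis is log2 of the authors' normalized signal plus 1, not divided by transcript length. In tpp1, lgmn, psap and hexb all 6 microglia libraries lie right of the 3 libraries of other brain cells, in lamp1 and laptm4b all 6 lie left of them, and in tfeb and laptm4a the groups overlap.

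The membrane proteins were less uniform than the enzymes. lamp2, a heavily glycosylated protein of the lysosomal boundary, had 307 and 388 at 24 h, 354 and 392 at 48 h, against 236 and 391 in control microglia and 58.3, 122 and 68.1 in other brain cells. lamp1, a second such protein, had 25.9 and 21.1 at 24 h, 16.7 and 41.5 at 48 h, against 25.3 and 26.4 in control microglia and 116, 125 and 83.7 in other brain cells, in the opposite order. In activated microglia lamp2 was higher, at 2.18 ± 0.31, and lamp1 lower, at -2.06 ± 0.34 (limma, adjusted p = 0.000248 and 0.00063). Control microglia were at 1.94 ± 0.41 and -2.0 ± 0.32 (limma, adjusted p = 0.00663 and 0.00156), and leaving out control sample 5 ended the lamp2 call there (adjusted p = 0.108). laptm4b, a small lysosomal membrane protein, had 25.7 and 37.6 at 24 h, 37.8 and 57.6 at 48 h, against 40.2 and 49.4 in control microglia and 367, 324 and 206 in other brain cells. It was lower in both, at -2.90 ± 0.33 in activated and -2.68 ± 0.35 in control microglia (limma, adjusted p = 6.96e-05 and 0.000662). Its relative laptm4a lay between 262 and 378 in activated microglia, 225 and 281 in control microglia and 211 and 385 in other brain cells, with overlap between all groups. Neither comparison called laptm4a.

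gpnmb, a glycoprotein found in lysosomes and melanosomes, had 15 and 7.71 at 24 h, 10.5 and 46.7 at 48 h, 15.8 and 10.1 in control microglia and 0.351, 0.44 and 0.943 in other brain cells. Other brain cells held 1, 2 and 10 reads of it, and the difference was 3.42 ± 0.54 for activated and 3.13 ± 0.43 for control microglia (limma, adjusted p = 0.00051 and 0.000781). The tetraspanin gene cd63 had 1006 and 1009 at 24 h, 601 and 1626 at 48 h, 771 and 1143 in control microglia and 548, 635 and 240.4 in other brain cells. Activated microglia overlapped other brain cells in range, and the call rested close to the threshold (1.19 ± 0.45, limma, adjusted p = 0.04998). It was lost when other brain cell sample 2 or 10, 24 h sample 3 or 7, or 48 h sample 8 was left out (adjusted p up to 0.19), and control microglia were not called (1.1 ± 0.49, adjusted p = 0.117). cln3, a membrane protein whose loss causes a storage disease in people, was not called in activated (0.96 ± 0.37, limma, adjusted p = 0.0523) or control microglia (0.71 ± 0.39, adjusted p = 0.193).

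The calcium channel of the lysosome has a pair of genes. mcoln1a had 63.3 and 73 at 24 h, 62.4 and 18 at 48 h, 52.5 and 75 in control microglia and 21.9, 51.3 and 30 in other brain cells, and 48 h sample 8 was the lowest of the 9 libraries. mcoln1b held 0 to 4 reads in the activated libraries, 6 and 0 in the controls and 17, 1 and 56 in other brain cells, too few to compare. In signal that was 0.378 and 0.691 at 24 h, 0.68 and 0.223 at 48 h, 1.15 and 0.223 in control microglia and 2.39, 0.331 and 4.26 in other brain cells. Neither gene was called in activated or control microglia against other brain cells. tfeb, the transcription factor named for its control of lysosomal genes in mammals, had 51.4 and 51.2 at 24 h, 39 and 66.1 at 48 h, 61.6 and 74.2 in control microglia and 54, 67.2 and 36.5 in other brain cells. All groups overlapped, and the difference was 0.00 ± 0.30 for activated microglia (limma, adjusted p = 0.996) and 0.40 ± 0.35 for control microglia (adjusted p = 0.428).

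In the V0 part of the pump, the a subunit sits in the membrane beside the proton path and is encoded by several genes. atp6v0a1a had 82.1 and 101 at 24 h, 88.5 and 94.9 at 48 h, against 58.2 and 69 in control microglia and 29.6, 14.3 and 28.1 in other brain cells. atp6v0a1b had 2.24 and 2.56 at 24 h, 2.85 and 0.599 at 48 h, against 2.54 and 1.9 in control microglia and 35.6, 34.3 and 142 in other brain cells. The first was higher in all microglia libraries and the second lower, with no overlap in either gene. In activated microglia the differences were 1.95 ± 0.30 and -4.29 ± 0.54 (limma, adjusted p = 0.000422 and 0.000116), and in control microglia 1.43 ± 0.39 and -4.15 ± 0.61 (adjusted p = 0.0215 and 0.0011). The atp6v0a1a call in control microglia was lost without either control library (adjusted p up to 0.166).

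The second pair of a subunit genes split in the same way in activated microglia. atp6v0a2b had 28.4 and 39.4 at 24 h, 29.4 and 50.2 at 48 h, against 9.65 and 27.6 in control microglia and 10.6, 9.75 and 11.9 in other brain cells. atp6v0a2a had 0.223 and 0.808 at 24 h, 0.566 and 1.85 at 48 h, against 0.687 and 0.375 in control microglia and 33.5, 24.1 and 38.2 in other brain cells. Microglia libraries held 0, 5, 3, 13, 3 and 1 reads of atp6v0a2a, against 261, 221 and 527 reads in other brain cells. Activated microglia differed by 1.66 ± 0.29 for atp6v0a2b and -4.19 ± 0.37 for atp6v0a2a (limma, adjusted p = 0.000992 and 1.63e-05). At so few reads the added 1 makes these differences of atp6v0a2a smaller in size than the change in reads. The authors' deposited comparison of microglia with brain, which may not be of controls alone, gives -6.69. Control microglia were called for atp6v0a2a (-4.41 ± 0.42, limma, adjusted p = 0.000167) and not for atp6v0a2b (0.58 ± 0.48, adjusted p = 0.398).

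The c subunit forms the ring that turns in the membrane as protons pass. atp6v0ca had 705 and 751 at 24 h, 471 and 743 at 48 h, against 281 and 479.5 in control microglia and 124, 148 and 85.1 in other brain cells. atp6v0cb had 4.41 and 8.06 at 24 h, 3.65 and 13.6 at 48 h, against 18.6 and 13.3 in control microglia and 227, 305 and 287 in other brain cells. Here too 1 copy was high where the other was low, and the 2 kinds of cells did not overlap in either. atp6v0ca was higher by 2.49 ± 0.31 in activated and 1.65 ± 0.38 in control microglia (limma, adjusted p = 0.000113 and 0.00997), the control call being lost without control sample 5 (adjusted p = 0.129). atp6v0cb was lower, at -5.16 ± 0.40 in activated and -4.02 ± 0.32 in control microglia (limma, adjusted p = 8.5e-06 and 9.2e-05). atp6v0b encodes a second kind of ring subunit and was higher in activated microglia (1.58 ± 0.31, limma, adjusted p = 0.00197), with no call in control microglia (0.76 ± 0.38, adjusted p = 0.152).

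atp6v0e1, a small membrane subunit, had 68.6 and 64.8 at 24 h, 43.4 and 97.2 at 48 h, against 61.1 and 61 in control microglia and 3.92, 9.32 and 2.81 in other brain cells. It had the largest positive difference of the pump rows in either comparison, 3.53 ± 0.40 for activated and 3.42 ± 0.48 for control microglia (limma, adjusted p = 6.7e-05 and 0.000874). atp6v0d1, which joins the ring to the central stalk, had 117 and 161 at 24 h, 104 and 237 at 48 h, 88.8 and 104 in control microglia and 85.5, 144 and 90.1 in other brain cells. Its groups overlapped, and it was not called in activated (0.50 ± 0.35, limma, adjusted p = 0.259) or control microglia (-0.11 ± 0.34, adjusted p = 0.845).

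In the V1 part, the B subunit binds nucleotide beside the catalytic A subunit. atp6v1ba had 515 and 636 at 24 h, 553 and 792 at 48 h, against 212 and 314 in control microglia and 71.3, 77 and 80.7 in other brain cells. atp6v1b2 had 3.79 and 6.54 at 24 h, 4 and 9.37 at 48 h, against 19.5 and 12.2 in control microglia and 124, 236 and 162 in other brain cells. The B genes thus stood in opposite orders, with differences of 3.00 ± 0.27 and -4.68 ± 0.36 in activated microglia (limma, adjusted p = 1.58e-05 and 8.5e-06). In control microglia they were 1.75 ± 0.31 and -3.36 ± 0.38 (limma, adjusted p = 0.00292 and 0.000354). atp6v1b2 was the only V1 row called lower in either comparison.

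The catalytic A subunit, which splits ATP, also has a pair of genes. atp6v1ab had 184 and 244 at 24 h, 194 and 304 at 48 h, 55.1 and 101 in control microglia and 29.3, 23.6 and 53.9 in other brain cells. atp6v1aa had 199.8 and 197 at 24 h, 191 and 176 at 48 h, 71.3 and 76 in control microglia and 60.3, 51 and 132 in other brain cells. Control microglia overlapped other brain cells in atp6v1aa and stood just above them in atp6v1ab, and neither was called there (-0.01 ± 0.43 and 1.13 ± 0.44, limma, adjusted p = 0.99 and 0.0777). Activated microglia were higher in both, by 1.35 ± 0.34 for atp6v1aa and 2.73 ± 0.34 for atp6v1ab (limma, adjusted p = 0.0075 and 0.000103). The atp6v1aa call against other brain cells was lost after scaling to the total of each library and after quantile normalization.

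The remaining V1 rows are those of the stalks and the regulatory cap, with the row ENSDARG00000003635, whose place in the pump is uncertain. In activated microglia 8 of these 9 rows were called higher than in other brain cells, from 1.01 ± 0.31 for the peripheral stalk subunit atp6v1g1 to 2.04 ± 0.41 for the row ENSDARG00000003635. The calls of atp6v1g1, atp6v1c1b, atp6v1f and atp6v1e1b were each lost without other brain cell sample 2 or 10 or both (adjusted p up to 0.0875, 0.154, 0.0647 and 0.0747), those of atp6v1g1 and atp6v1c1b also without single activated libraries. In control microglia that row alone was called, at 1.67 ± 0.44 (limma, adjusted p = 0.0171), and its call was lost without either control library or other brain cell sample 2 (adjusted p up to 0.124). It had 12.1 and 8.88 at 24 h, 13.5 and 29.9 at 48 h, against 8.57 and 14.1 in control microglia and 2.9, 2.39 and 3.03 in other brain cells. The other atp6v1e1a row had 89.3 and 98.2 in the 24 h libraries, 58.2 and 132 in the 48 h libraries, 78.6 and 109 in the controls and 53.6, 97 and 33.1 in other brain cells, with no call in either comparison (limma, adjusted p = 0.179 and 0.26). atp6v1e1b, a second gene of the peripheral stalk subunit E, had 241 and 296 at 24 h, 251 and 437 at 48 h, 162 and 189 in control microglia and 118, 161 and 159 in other brain cells. It was called in activated (1.03 ± 0.30, limma, adjusted p = 0.0158) and not in control microglia (0.28 ± 0.31, adjusted p = 0.549).

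The accessory subunits are glycoproteins that help the pump assemble and reach its membrane. atp6ap1b had 383 and 335 at 24 h, 327 and 512 at 48 h, against 167 and 285 in control microglia and 36.2, 52 and 32.6 in other brain cells. atp6ap1a had 4.41 and 7.25 at 24 h, 4.91 and 1.48 at 48 h, against 4.09 and 5.7 in control microglia and 71.1, 83.2 and 206 in other brain cells. The copies differed in opposite directions by 3.25 ± 0.29 and -4.41 ± 0.49 in activated microglia (limma, adjusted p = 1.52e-05 and 5.45e-05), and by 2.44 ± 0.37 and -4.21 ± 0.48 in control microglia (adjusted p = 0.00119 and 0.000372). atp6ap2, also known as the prorenin receptor, had 529.6 and 611 in the 24 h libraries, 544 and 1194 in the 48 h libraries, 567 and 586 in the controls and 162, 272 and 185 in other brain cells. It was higher by 1.74 ± 0.37 in activated and 1.51 ± 0.35 in control microglia (limma, adjusted p = 0.00289 and 0.0101), and the control call was lost without either control library or other brain cell sample 2 (adjusted p up to 0.0987).

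**Figure D2:**
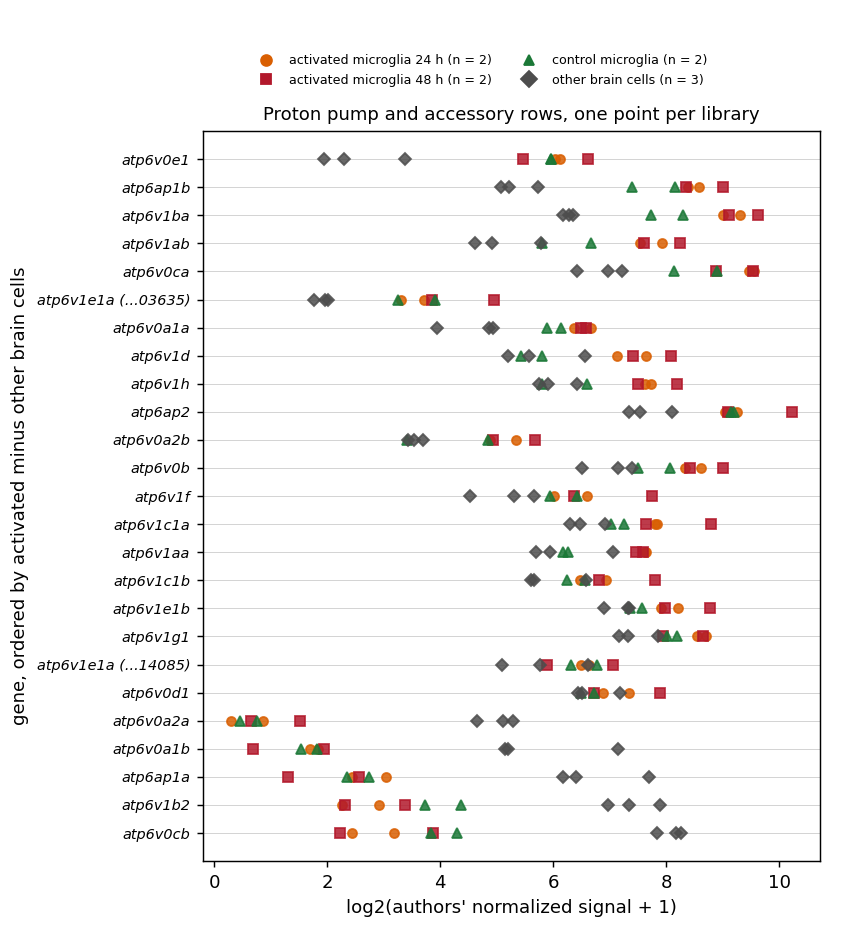
Each row is a pump or accessory gene, ordered by activated minus other brain cells, each point is 1 library, and the x axis is log2 of the authors' normalized signal plus 1, not divided by transcript length. In the lowest 5 rows (atp6v0a2a, atp6v0a1b, atp6ap1a, atp6v1b2 and atp6v0cb) all 6 microglia libraries lie left of the 3 libraries of other brain cells, while in the upper rows most lie right of them.

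The balance between related genes was then measured within each library, as the log2(signal + 1) of 1 gene minus that of the other, for 13 pairs chosen with these values known. Only differences of this ratio between groups can be read, since transcript lengths were not used. The pair atp6v1ba and atp6v1b2 had a ratio of 6.55 ± 0.26 in activated microglia (SD, n = 4), 3.97 ± 0.84 in control microglia (SD, n = 2) and -1.13 ± 0.42 in other brain cells (SD, n = 3). For atp6ap1b and atp6ap1a it was 6.25 ± 1.02 in activated microglia, 5.23 ± 0.26 in control microglia and -1.41 ± 1.06 in other brain cells. atp6v0ca and atp6v0cb gave 6.43 ± 0.58 in activated microglia, 4.46 ± 0.87 in control microglia and -1.22 ± 0.46 in other brain cells. Activated microglia thus differed from other brain cells by 7.68, 7.66 and 7.65 for these 3 pairs.

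The a subunit pairs differed by 6.25 for atp6v0a1a over atp6v0a1b and by 5.85 for atp6v0a2b over atp6v0a2a, the last understated by the few reads of atp6v0a2a. The added 1 also lowers the ratios that rest on atp6v0a1b, at 0.599 to 2.85 in microglia, and on atp6ap1a, at 1.48 to 7.25. Pairs with close differences are therefore not ranked. Outside the pump the same measure gave 4.23 for lamp2 over lamp1, 2.99 for laptm4a over laptm4b, 1.93 for asah1b over asah1a and 1.61 for hexb over hexa. It was 1.37 for atp6v1ab over atp6v1aa and 0.41 for atp6v1c1a over atp6v1c1b, genes of the C subunit, which holds the parts of the pump together. In each of these 11 pairs all 4 activated libraries lay above all 3 of the other brain cells; since the pairs were chosen with these values known, no test is given. The ratio of atp6v1e1a (ENSDARG00000014085) to atp6v1e1b differed by -0.34 with overlap, and the mcoln1 pair is plotted but not compared because mcoln1b had too few reads. Control microglia differed from other brain cells by 5.10 for the B subunit pair, 6.64 for the atp6ap1 pair and 5.67 for the c subunit pair.

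**Figure D3:**
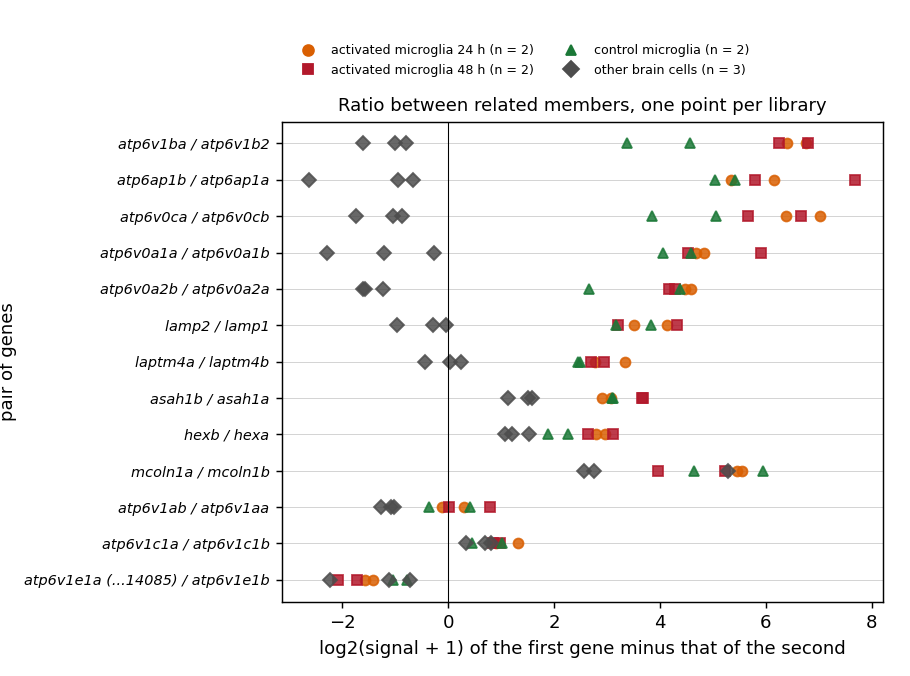
Each row is a pair of related genes, each point 1 library, and the x axis is the log2(signal + 1) of the first gene minus that of the second. Positions relative to 0 are not comparable between pairs because lengths were not used, but in the upper 9 rows all 6 microglia libraries lie right of the 3 libraries of other brain cells, and in the bottom row they overlap.

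Comparing activated with control microglia asked which of these genes differed between fish given MTZ and fish given DMSO. No group had MTZ without NTR, so effects of the drug itself and of loss of neurons cannot be told apart. Pump genes of the V1 part stood higher in activated microglia, and so did several enzymes, but few differences passed the test with 4 libraries against 2. Of the 50 genes, 2 were called higher and 0 lower, beside 0.834% and 0.47% of all genes tested. Both encode V1 subunits. atp6v1aa, a catalytic A subunit gene, averaged 191 ± 10.9 in activated microglia (SD, n = 4) and 73.7 ± 3.34 in control microglia (SD, n = 2), a difference of 1.36 ± 0.16 (limma, adjusted p = 0.0384). atp6v1d encodes the central stalk that turns the ring. It had 138 and 199 at 24 h, 272 and 170.3 at 48 h, against 42.2 and 54.6 in control microglia and 46.6, 35.8 and 93.2 in other brain cells, a difference from control microglia of 1.95 ± 0.30 (limma, adjusted p = 0.0493).

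Neither call held across the choice of libraries. Each was made in 6 of 16 alternatives, with adjusted p between 0.0284 and 0.611 for atp6v1aa and between 0.0283 and 0.611 for atp6v1d, while the differences stayed positive, at 0.89 to 1.41 and 1.45 to 2.13. Both were lost when control sample 1 or 5, 24 h sample 3 or 7, or 48 h sample 4 was left out, and when control sample 9 was used as deposited. Without 48 h sample 8 the number of members called higher was 5, beside 1044 of 21684 genes against 181 of 21714 with it, and limma-voom on reads recovered from the signal called 0. At an FDR under 0.05, the authors' deposited table for pooled activated microglia had 4 members higher (lgmn, atp6v1ab, atp6v1h and atp6v1d) and 0 lower. These stand beside 2.39% and 3.31% of its genes. Whether the authors' control group included sample 9 is not stated, so their set of samples may differ from the one used here.

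At an unadjusted p under 0.05, 18 members were higher and 1 lower, beside 11.2% and 9.33% of all genes. In 21 members every activated library was above both controls, and in 1 (atp6v1b2) every activated library was below, beside 15.9% and 15.5% of all genes. Those 21 comprised 12 pump rows, 7 of them V1 rows, and 9 others. The median difference was 0.76 over the 13 V1 rows, 0.52 over the 9 V0 rows and 0.25 over the hydrolases, membrane proteins and tfeb, against 0.01 over all genes. Without the row ENSDARG00000003635 it was 0.82 over 12 V1 rows. The 16 microglia and macrophage markers had a median of 0.86 in the same comparison, none of them called, so the shift of the V1 rows was not larger than theirs. The 7 erythrocyte markers had a median of -1.81, with 1 called lower, and their summed signal was 26.6 to 43.4 in activated microglia and 139 to 826 in control microglia. The part of either in the members' differences was not tested. Without 48 h sample 8 the medians of the members were 0.57 over the V1 rows and 0.07 over the hydrolases, membrane proteins and tfeb.

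Other members stood higher in activated microglia in every library without passing the threshold. atp6v1h, the regulatory subunit H, had 198 and 213 at 24 h, 180.5 and 290.1 at 48 h, against 55.1 and 95.5 in control microglia, a difference of 1.56 ± 0.30 (limma, adjusted p = 0.0707). atp6v1ab differed by 1.59 ± 0.33 and atp6v1ba by 1.25 ± 0.28 (limma, adjusted p = 0.0751 and 0.0849). Among the enzymes, lgmn differed by 1.92 ± 0.63, psap by 1.66 ± 0.52 and hexb by 1.55 ± 0.41 (limma, adjusted p = 0.168, 0.154 and 0.111). man2b1, gba and tpp1 differed by 1.36 ± 0.29, 1.30 ± 0.33 and 1.21 ± 0.34 (limma, adjusted p = 0.0755, 0.105 and 0.125). None of these 9 genes overlapped between activated and control libraries.

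At the other end, atp6v1b2 averaged 5.92 in activated and 15.9 in control microglia (-1.33 ± 0.44, limma, adjusted p = 0.168), and atp6v0cb 7.44 and 16.0 in the same order (-1.14 ± 0.53, adjusted p = 0.298). Neither was called. Both were high in other brain cells, whose neuron and oligodendrocyte markers were also lower in the activated than in the control libraries, as given above. The part of such RNA in these differences was not tested. The other members called lower in microglia than in other brain cells were not called between activated and control microglia either. lamp1 averaged 26.3 in activated and 25.8 in control microglia, laptm4b 39.7 and 44.8, atp6v0a1b 2.06 and 2.22 and atp6v0a2a 0.862 and 0.531 in the same order. tfeb (-0.40 ± 0.25), mcoln1a (-0.38 ± 0.59) and laptm4b (-0.22 ± 0.33) had the lowest values of the non-pump genes, without a call (limma, adjusted p = 0.414, 0.751 and 0.74). atp6ap1a was at -0.21 ± 0.53 (limma, adjusted p = 0.848).

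**Figure D4:**
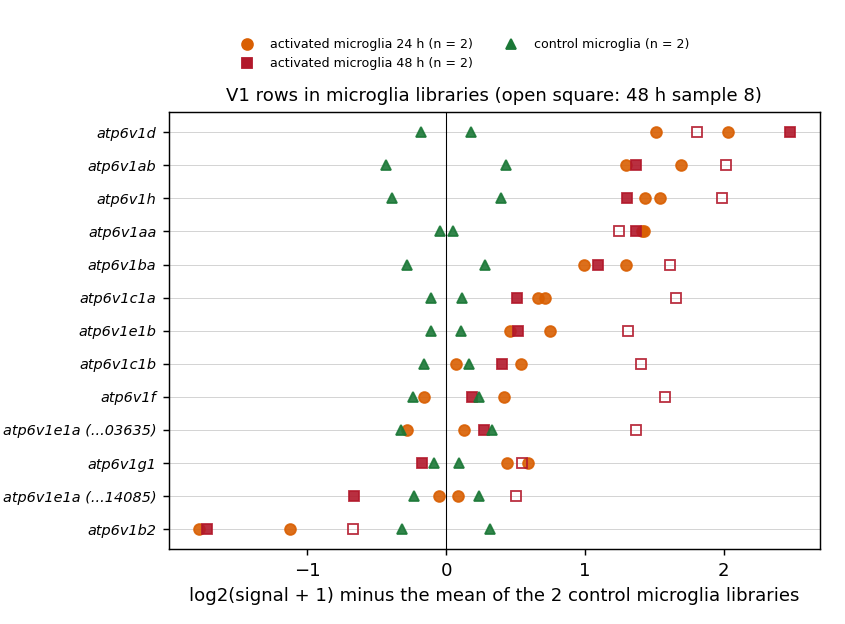
Each row is a V1 gene, each point 1 microglia library, and the x axis is its log2(signal + 1) minus the mean of the 2 control microglia libraries. For atp6v1d, atp6v1ab, atp6v1h, atp6v1aa and atp6v1ba all 4 activated libraries lie right of both controls, for atp6v1b2 all 4 lie left, and 48 h sample 8, the open square, is the rightmost point in most rows.

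The 2 times were also compared separately, with 2 libraries in each group. No member was called at 24 h against control microglia (0 higher and 0 lower, beside 0.00461% and 0% of all genes), at 48 h against control microglia (0 and 0, beside 0% and 0%) or at 48 h against 24 h (0 and 0, beside 0% and 0%). At an unadjusted p under 0.05 in limma, 9 were higher and 1 lower at 24 h against control microglia, beside 9.18% and 6.52% of all genes. At 48 h against control microglia 14 were higher and 0 lower, beside 10% and 8.23%, and at 48 h against 24 h 2 were higher and 0 lower, beside 1.89% and 2.25%. limma-voom called 0 in each of these comparisons. At 24 h the largest differences from control microglia were 1.86 ± 0.78 for lgmn, 1.77 ± 0.34 for atp6v1d and 1.52 ± 0.37 for gba (limma, adjusted p = 0.348, 0.185 and 0.202). At 48 h they were 2.14 ± 0.34 for atp6v1d, 2.08 ± 0.51 for psap and 1.98 ± 0.78 for lgmn (limma, adjusted p = 0.117, 0.163 and 0.279). Between the times the largest were 1.42 ± 0.85 for npc2, 1.18 ± 0.47 for asah1b and 1.15 ± 0.53 for gla, and mcoln1a was lowest at -0.99 ± 0.60 (limma, adjusted p = 0.892 for each). The authors' deposited table at an FDR under 0.05 has hexb and atp6v1d higher at 48 h, beside 2.4% of its genes, and 0 lower, beside 1.77%. At 24 h it has 0 higher and 0 lower, beside 0.588% and 0.556%. Here too the authors' controls may have included sample 9.

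The 48 h libraries differed from each other in these genes. Sample 8 was the highest of the 4 activated libraries in 37 of the 50 members, beside 33.6% of all genes, and the other 3 libraries were highest in 2, 6 and 5. The median of the 25 pump rows over the control mean was 0.37 and 0.61 in 24 h samples 3 and 7, 0.36 in 48 h sample 4 and 1.23 in 48 h sample 8. For the hydrolases, membrane proteins and tfeb it was 0.06 and 0.10 at 24 h, 0.24 in sample 4 and 0.79 in sample 8. Over all genes it lay between -0.05 and 0.00. The signal summed over all genes was 1444667 in sample 8, against 998447 to 1071065 in the other activated libraries. Scaling to the total of each library moved the median of 48 h minus 24 h over the 50 members from 0.24 to -0.06. Over all genes it moved from -0.04 to -0.24. The summed signal of the 16 microglia and macrophage markers was also highest in sample 8, at 136500, against 38870 to 79230 in the other activated libraries, and its part in the members' levels was not tested.

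Other lysosomal genes were read from lists of names. Of 41 further hydrolases and their helpers, 24 were called higher and 3 lower in activated microglia than in other brain cells, beside 22.9% and 27.6% of all genes, with a median of 1.27 against -0.05 over all genes. Among the largest were naga, an alpha-N-acetylgalactosaminidase (5.00 ± 0.36), dnase2, an acid DNase (4.79 ± 0.26), and ctsa, a protective carboxypeptidase (4.07 ± 0.37). The related gene dnase2b, also among the largest, had 30.2 and 26.0 at 24 h and 35.2 and 30.1 at 48 h. Other brain cells had 0.478, 0.223 and 0.799 of it, close to the value for 0 reads. The lowest was sort1a, a sorting receptor (-2.81 ± 0.33). In control microglia 15 were higher and 2 lower than in other brain cells, beside 15.1% and 20.2%, with a median of 0.94 against -0.14. None of the 41 was called between activated and control microglia.

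Of 39 further membrane proteins and transporters, 15 were higher and 9 lower in activated microglia than in other brain cells, beside 22.9% and 27.6% of all genes. In control microglia 13 were higher and 3 lower, beside 15.1% and 20.2%, with medians of 0.35 in activated and 0.53 in control microglia. They ran in activated microglia from dram1, a lysosomal protein tied to autophagy (3.38 ± 0.39), to the tetraspanin gene cd82a (-5.11 ± 0.34). The chloride exchanger gene clcn7 and its partner ostm1, which together move chloride against protons, were higher by 2.67 ± 0.29 and 1.99 ± 0.35. Against control microglia only mfsd12b, named for a transporter family, was called in activated microglia, at -2.11 ± 0.32 (limma, adjusted p = 0.0487), in 8 of 16 alternatives.

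Partners of the pump also split between copies in activated microglia. There tcirg1b, a further a subunit gene outside the naming rule, was higher, at 4.29 ± 0.26, and tcirg1a lower, at -2.33 ± 0.41 (limma, adjusted p = 2.99e-06 and 0.00093). tcirg1a had 0.223 to 1.71 in activated microglia, close to the value for 0 reads. Its controls, at 8.41 and 3.42, overlapped other brain cells, at 5.46, 14.0 and 10.4. In activated microglia rnaseka and rnasekb, genes of a small protein bound to the pump, differed by 3.32 ± 0.49 and -4.29 ± 0.53 (limma, adjusted p = 0.000334 and 0.000102). Control microglia stood on the same side for tcirg1b, rnaseka and rnasekb. They had 364 and 355 of tcirg1b, against 25.1, 15.7 and 25.9 in other brain cells. For rnaseka they had 157 and 225 against 24.7, 29.1 and 7.35, and for rnasekb 25.1 and 20.0 against 279, 391 and 147. Over the 9 partners tested, 3 were higher and 5 lower in activated microglia than in other brain cells, beside 22.9% and 27.6% of all genes. In control microglia 2 were higher and 4 lower, beside 15.1% and 20.2%, with medians of -1.34 in activated and -0.68 in control microglia.

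While tfeb was not called, its relatives tfec, mitfa, tfe3a and tfe3b were higher in activated microglia, by 3.99 ± 0.24, 3.26 ± 0.40, 2.12 ± 0.31 and 1.68 ± 0.42 (limma, adjusted p = 2.85e-06, 9.91e-05, 0.000295 and 0.00778). In control microglia they were higher by 3.72 ± 0.36, 3.37 ± 0.46, 1.87 ± 0.40 and 1.92 ± 0.54 (limma, adjusted p = 0.000179, 0.000796, 0.00661 and 0.0237). Other brain cells had 0.223, 0.223 and 0.295 of mitfa, at or close to the value for 0 reads. Of tfe3b they had 2.01, 0.223 and 2.53. The further relative mitfb was not called, at 0.74 ± 0.37 in activated and 0.80 ± 0.36 in control microglia (limma, adjusted p = 0.12 and 0.124). Of the 22 transcription factors and nutrient sensors tested, 5 were higher and 4 lower in activated microglia, close to or below the 22.9% and 27.6% of all genes. In control microglia 5 were higher and 3 lower, beside 15.1% and 20.2%, with medians of 0.58 in activated and 0.19 in control microglia. rheb, the small GTPase that switches on mTORC1 at the lysosome, was the lowest in activated microglia at -3.45 ± 0.29. None of the 22 was called between activated and control microglia.

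Of 40 genes for fusion and sorting of endosomes and lysosomes, 16 were higher and 1 lower in activated microglia than in other brain cells, beside 22.9% and 27.6% of all genes. In control microglia 4 were higher and 0 lower, a smaller share than the 15.1% and 20.2% of all genes, with medians of 0.83 in activated and 0.25 in control microglia. Those of activated microglia ran up to 2.51 ± 0.32 for arl8bb, a GTPase that moves lysosomes along microtubules. Between activated and control microglia 1 of the 40 was called, hgs, which sorts ubiquitinated cargo on endosomes, at 1.93 ± 0.21 (limma, adjusted p = 0.0384), in 7 of 16 alternatives.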

How the data were processed

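RNA of sorted zebrafish microglia and of GFP-negative brain cells was sequenced as 50-nucleotide single-end reads from SMARTer cDNA, per the labels' protocols. Build GRCz10, TopHat2 2.0.5, SAMtools 0.1.18 and, without a version, edgeR are listed in the submitters' processing notes; the counting tool, annotation and use of strand are not given in the sources used here. The first deposited table gives each gene a signal in each library, a read coverage that the authors scaled. In every column values are whole multiples (within 0.05) of 1 step added to 0.223. Subtracting 0.223 and then dividing by that step gave the reads. The authors' second deposited table holds log2 fold changes and the authors' FDR, a kind of adjusted p-value (q-value).

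Control microglia sample 9 was left out as planned, since an earlier look at these data had found it identical to 24 h sample 3. That identity was checked again here. Genes with a signal of at least 1 in at least 2 of the 9 libraries were kept (21714 genes). The signal was transformed as log2(signal + 1) and fitted with limma 3.58.1 (statmod 1.5.0, R 4.3.3; lmFit, then eBayes with trend), and tests were two-sided. The 24 h, 48 h and control libraries shared a fit for the comparisons by time; each of the other comparisons used its own groups. The signal is offset by a constant, which was subtracted to recover the reads, and limma-voom served as the count model for them. The fits were also run on simulated reads with the same spread setting for every gene and no outlying library. That run checks the code and cannot show how far the calls made here hold. Python 3.11.15 with pandas 2.3.3, numpy 2.4.6 and matplotlib 3.10.9 made the tables and plots.

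The members and lists were chosen with earlier results of these data known. Values in every sample were printed for a set list of members (the best known enzymes and membrane proteins, tfeb, and duplicated pump subunits other than atp6v1c1a and atp6v1c1b). They were also printed for the 3 pump rows and 3 other members with the largest positive and negative difference in the main comparisons, and other members were given by range, count or fold. Alternatives were other pseudocounts (0.5 and 4), a filter at 5 and none, scaling to the total of each library, quantile normalization, limma-voom, 1 fit for all libraries, control sample 9 as deposited and leaving out each library. No gene sequence or position was used here.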

Additional observations from a re-analysis of the deposited data

Results flagged for a closer look

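Among the 4 activated libraries, 4 of the 50 members had a library that stood apart from the other 3. Its gap to the nearest one over the whole range, on the log2(signal + 1) scale, passed Dixon's critical value for 4 values. Chance passes it in about 1 of 20 such groups, and the rate over all genes was not counted. The 4 libraries mix 24 h and 48 h, and sample 8 was the highest of them in 33.6% of all genes. Signals below are printed untransformed, while the shares are on the log2 scale. For asah1a, an acid ceramidase gene, 48 h sample 8 had a signal of 129.7 against 55.6 to 61.2 in the others, a share of 0.887. For ppt1, a thioesterase gene, the same library had 528.5 against 149.8 to 183, a share of 0.843. For mcoln1a, a lysosomal calcium channel gene, it was the lowest at 18 against 62.4 to 73, a share of 0.886. For atp6v0ca, a proton ring subunit gene, 48 h sample 4 was the lowest at 471 against 705 to 751, a share of 0.863. The cause was not tested.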

How the results depend on the processing

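The calls against other brain cells held best. Of the 43 calls in activated microglia, 36 were made in every alternative run, and of the 29 in control microglia 17 were. Leaving out 1 library gave 31 to 38 called higher and 7 to 8 lower in activated microglia, and 11 to 25 higher and 7 to 8 lower in control microglia. Over all genes the runs of activated microglia gave 4051 to 5433 higher and 5102 to 6013 lower. For activated against control microglia, 2 members were called higher, beside 181 of 21714 genes. They became 1 with a pseudocount of 0.5, beside 171 of 21714, and 4 with a filter at 5, beside 477 of 16558. They became 0 with scaling to the total of each library (beside 108 of 21714), quantile normalization (143) or limma-voom (23). With control sample 9 as deposited they were also 0, beside 0 of 21721. Leaving out 1 library gave 0 to 5. A filter on the compared libraries alone, added after seeing the data, gave 4, beside 503 of 18701 genes. For 48 h against control microglia that filter gave 1, beside 177 of 18701. There 1 fit for all libraries also gave 1, beside 190 of 21714. The cause was not tested beyond the number of genes or libraries each setting keeps. Scaling to the total of each library moved the median of all genes to -0.47 for control and -0.42 for activated microglia against other brain cells, and quantile normalization to 0.06 and 0.13. Among values of single genes, 1890 stayed on their side of the threshold with their direction, 82 lost and 13 gained the call, and 13 turned, none of them called. With control sample 9 as deposited, laptm4b was 0.04 in activated against control microglia. Leaving out 1 library in turn gave differences for mcoln1a of -0.63 to 0.07 and atp6ap1a -0.44 to 0.14 in the same comparison. At 24 h against control microglia it gave gla -1.33 to 0.08 and atp6v1e1a (ENSDARG00000003635) -0.41 to 0.25, and at 48 h mcoln1b -0.58 to 0.23 and atp6ap1a -1.24 to 0.02. At 48 h against 24 h it gave npc1 -0.79 to 0.35, atp6v0a1b -1.09 to 0.18 and atp6v1g1 -0.69 to 0.04. Depth limits atp6v0a2a and mcoln1b in microglia, which had 0 to 13 and 0 to 6 reads. No paired analysis was possible because each sample number occurs once in the labels and no label ties samples of different groups into sets.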

Other observations

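Several rows carry names close to those of members but fall outside the exact spelling, and are given here as values only. The row spelled LAPTM5, laptm5 in the reference gene table, had a signal of 472.5 and 404 at 24 h, 472 and 1050 at 48 h, 646 and 632 in control microglia and 85.7, 93.9 and 43.1 in other brain cells. The row spelled scarb2, scarb2a in the reference, had 213 and 236 at 24 h, 293 and 239 at 48 h, 210.2 and 227 in control microglia and 54.3, 98.1 and 86 in other brain cells. A further LAMP1 row, marked as the second copy, had 26 and 23.5 at 24 h, 40.5 and 2.35 at 48 h, 12.6 and 13.3 in control microglia and 4.18, 3.36 and 5.62 in other brain cells. The lamp1 member was lower in microglia, whereas 5 of the 6 microglia libraries of this second row were above all 3 libraries of other brain cells. An atp6ap1-like row (atp6ap1lb in the reference) had 0.843 and 0.691 at 24 h, 0.223 in both 48 h libraries, 0.841 and 0.223 in control microglia and 22.7, 24.4 and 33.2 in other brain cells. A second such row (atp6ap1la in the reference) had 13.25 and 13.57 at 24 h and 15.66 and 9.115 at 48 h. It had 23.09 and 23.05 in control microglia and 13.88, 8.343 and 15.42 in other brain cells. The row spelled SCARB2, scarb2c in the reference, had 32.01 and 32.29 at 24 h and 91.24 and 64.09 at 48 h. Control microglia had 31.59 and 26.25 of it, and other brain cells 14.14, 13.11 and 18.59.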
